A study of Homo sapiens with 8 samples.

Results

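Nonsense-mediated decay (NMD) is the pathway by which cells degrade mRNAs whose translation stops too early. Here 9 of its factors were followed by their gene symbols: the kinase SMG1 with its partners SMG8 and SMG9, the helicase UPF1, the adaptors UPF2, UPF3A and UPF3B, and the effectors SMG5 and SMG6. They were picked by symbol, with earlier results of these data known, and they are 9 of the 64253 genes counted. All 9 passed the filter on low counts that left 20305 genes for testing.

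In this pathway UPF2 and the UPF3 proteins link UPF1 to exon junction complexes left downstream of a stop codon, and SMG1, held in check by SMG8 and SMG9, phosphorylates UPF1. SMG6 then cuts the mRNA and SMG5 recruits deadenylation and decapping factors. Several factor mRNAs, among them those of SMG1, UPF1, UPF2, UPF3B, SMG5 and SMG6, are known as NMD targets themselves, so that their levels tend to rise when the pathway slows.

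RNA-seq had been performed on 4 groups of human colon cancer cells with 2 libraries each. They included HCT-8 cells, which are sensitive to 5-fluorouracil (5-FU), and HCT-8/FU cells, which are resistant to it, both in unconditioned medium. HCT-8 cells were also grown in conditioned medium (CM), collected after 48 hours of donor culture, either CM of HCT-8 (called parental CM here) or that of HCT-8/FU (called resistant CM). All cells were grown with fetal bovine serum. HCT-8/FU is a single resistant line, so that resistance cannot be told apart from any other feature of that line. Nothing in the labels gives 5-FU to the cells sequenced or says that replicates were separate cultures, and the p-values measure the spread between these libraries, which may be technical. In such bulk samples fewer cells that express a gene and less RNA per cell cannot be told apart.

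The libraries held 5804124 to 34881349 counts on genes. The share of records not aligned was 25.1% in HCT-8 replicate 1, 20.0% in HCT-8/FU replicate 2 and 29.6% in parental CM replicate 1, against 3.58% to 4.43% in the other 5 libraries. The epithelial marker KRT8 averaged 4815 to 5571 CPM (counts scaled to the normalized library total) over the groups, and all 5 epithelial and 5 intestinal markers had group means of 31.1 CPM (CDX1) or more. Of the markers of other cell types, PTPRC of blood cells was at 0 in all 8 libraries, COL3A1 averaged at most 0.113 and PECAM1 at most 1.57 CPM, but COL1A1 averaged 9.21 to 13.4 CPM. The markers moved between the lines. EPCAM (0.61), CDX1 (0.83) and VIL1 (0.96) were DE and higher in HCT-8/FU on the log2 scale. By the FDR alone CDX2 (75.7 CPM in HCT-8 and 94.1 CPM in HCT-8/FU) and CDH17 (128 and 190 CPM) were higher too. CDH1 (-0.40), KRT18 (-0.23) and LGALS4 (-0.56) were lower by the FDR, and KRT8 and KRT19 did not pass. The part of the markers in the results was not tested. Among genes, a library's deviation from the mean level followed GC content, with Spearman coefficients of -0.48 and -0.45 in the HCT-8/FU libraries, 0.37 and 0.52 in parental CM, 0.05 and 0.21 in HCT-8, and -0.06 in both libraries of resistant CM.

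SMG1 is the member whose counts need care, because truncated copies of it lie elsewhere on the same chromosome. The gene (ENSG00000157106) lies on the minus strand of chromosome 16 between 18804860 and 18926408 (GRCh38). Its mRNA of 16062 bases aligned to the 7 pseudogenes SMG1P1 to SMG1P7 between positions 1 and 4601, or 28.7% of its length, with an identity of 96.7% to 98.2% in SMG1P1 to SMG1P6 and of 83.3% in SMG1P7 (gaps counted as differences). No copy aligned to the rest of the mRNA. Of all stretches of 150 bases in the mRNA, 6.34% were identical in at least 1 copy. The 60 coding bases below, from exon 27 of 63 (chr16:18859634-18859693, minus strand), were picked as the stretch aligned without gaps in all 7 copies that held the most differing positions, and show by which bases a read is assigned to SMG1. Capitals mark the bases of a pseudogene that differ from SMG1. SMG1P1 stands also for SMG1P2 to SMG1P5, which have the same bases here.
SMG1: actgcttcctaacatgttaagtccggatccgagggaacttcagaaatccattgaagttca
SMG1P1: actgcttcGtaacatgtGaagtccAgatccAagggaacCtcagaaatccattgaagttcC
SMG1P6: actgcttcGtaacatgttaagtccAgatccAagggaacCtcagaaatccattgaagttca
SMG1P7: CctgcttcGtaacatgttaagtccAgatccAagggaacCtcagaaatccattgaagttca
Counted from 1 at the first base shown, C9G, G25A, G31A and T39C were shared by all 7 copies, T18G and A60C by SMG1P1 to SMG1P5, and A1C was found in SMG1P7.

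The other factors lie on other chromosomes of GRCh38, UPF2 on chr10:11920022-12043170 (minus strand), UPF3B on chrX:119834022-119852998 (minus strand), UPF3A on chr13:114281601-114305817 (plus strand) and UPF1 on chr19:18831959-18868230 (plus strand). SMG5 lies on chr1:156249224-156282825 (minus strand), SMG6 on chr17:2059839-2303785 (minus strand), SMG8 on chr17:59209400-59215239 (plus strand) and SMG9 on chr19:43727983-43754962 (minus strand). Values are counts over all exons of a gene, UTRs included.

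The 9 factors differed by an order of magnitude in level. Per kilobase of mRNA, in HCT-8 cells, UPF3A had the highest level with 44.9 CPM per kb, followed by SMG5 with 37.7 and UPF1 with 28.0 CPM per kb. SMG1 stood at 14.0 and SMG6 at 10.6 CPM per kb, and the remaining SMG8, SMG9, UPF3B and UPF2 lay between 5.58 and 6.85 CPM per kb. In HCT-8/FU cells SMG1 (23.9 CPM per kb) lay near UPF1 (24.7 CPM per kb), whereas in parental CM SMG1 was at 7.60 and UPF1 at 28.8 CPM per kb. Counts are over all exons but the length is that of a single reference mRNA (the MANE transcript), so the ranking depends on the length used. UPF3A has 5755 exonic bases against an mRNA of 2370 bases, and SMG5 has 5304 against 4559.

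**Figure D1:**
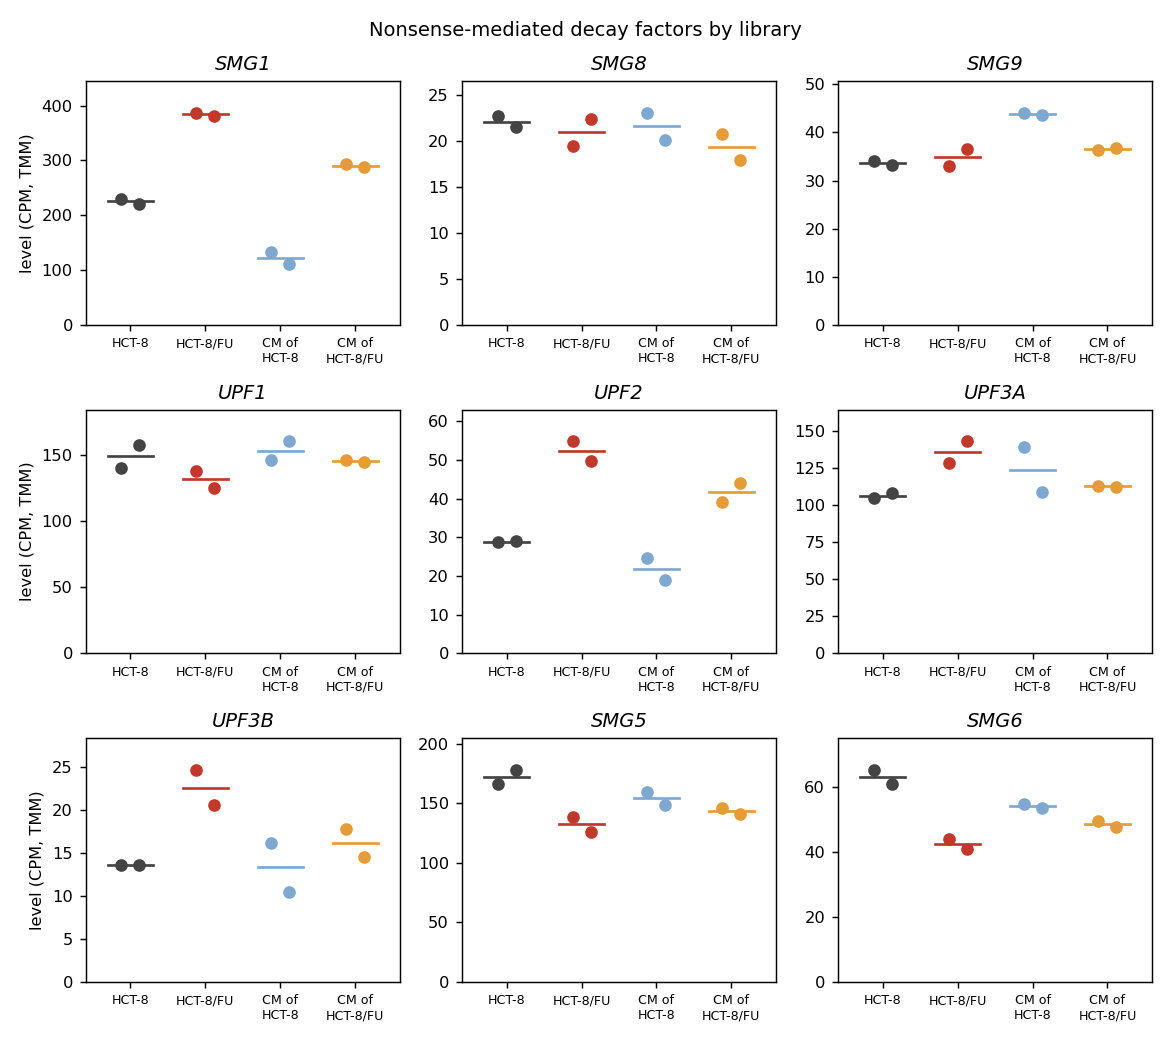
Level of each of the 9 NMD factors in CPM (linear axes starting at 0) in the 2 libraries of each group, with points for libraries and a line for the group mean. SMG1 and UPF2 have their lowest points in parental CM and their highest in HCT-8/FU, while the points of SMG8 lie close together in all groups.

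SMG1, a kinase of the PI3K-related family, varied most. Its level was 230 and 221 CPM in HCT-8, 387 and 381 CPM in HCT-8/FU, 133 and 112 CPM in parental CM, and 293 and 288 CPM in resistant CM. The 4 groups did not overlap, and the order was parental CM, HCT-8, resistant CM, HCT-8/FU. In edgeR's quasi-likelihood test each of the 3 neighbouring steps in that order passed an adjusted p (FDR) of 0.05, with log2 differences of 0.89, 0.37 and 0.40 (FDR 5.71e-06, 0.00327 and 0.00482). With a correction for GC content and length, described further on, 1 neighbouring step over all 9 factors passed, and SMG1 in resistant CM was at 0.12 against HCT-8 (FDR 0.489).

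SMG8 and SMG9 form a complex with SMG1 and restrain its kinase activity. SMG8 averaged 22.1 ± 0.81 CPM (SD, n = 2) in HCT-8, 20.9 ± 2.1 CPM in HCT-8/FU, 21.6 ± 2.1 CPM in parental CM and 19.3 ± 2.0 CPM in resistant CM, and none of its neighbouring groups passed the test. SMG9 averaged 33.6 ± 0.65, 34.8 ± 2.5, 43.9 ± 0.25 and 36.5 ± 0.29 CPM in the same groups. Its highest level was thus in parental CM, the group in which SMG1 was lowest. SMG8 shared 11.3% of its exonic bases with a gene on the same strand, which held 0 counts in every library.

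UPF1, the RNA helicase at the centre of the pathway, averaged 149 ± 12 CPM (SD, n = 2) in HCT-8, 131 ± 9.5 CPM in HCT-8/FU, 153 ± 10 CPM in parental CM and 145 ± 1.2 CPM in resistant CM. The ratio of its highest to its lowest group mean was smaller than that of any adaptor, and no pair of neighbouring groups passed the test.

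Among the adaptors, UPF2 followed the order seen for SMG1. It was at 28.7 and 28.9 CPM in HCT-8, 54.8 and 49.8 CPM in HCT-8/FU, 24.5 and 19.0 CPM in parental CM, and 39.1 and 44.04 CPM in resistant CM. No groups overlapped, for which again no share over all tested genes was computed. The step from parental CM to HCT-8 (log2 0.44, FDR 0.0238) and that from HCT-8 to resistant CM (log2 0.53, FDR 0.00408) passed the test, whereas the last step to HCT-8/FU did not (log2 0.34, FDR 0.0631).

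UPF3B, encoded on the X chromosome, had the lowest mean CPM of the 9 in every group but HCT-8/FU, where SMG8 was lower. Its level was 13.6 CPM in both HCT-8 libraries, 24.7 and 20.6 CPM in HCT-8/FU, 16.2 and 10.4 CPM in parental CM, and 17.8 and 14.5 CPM in resistant CM. HCT-8/FU alone stood above all other libraries. UPF3A, the paralogue of UPF3B and in some settings an NMD inhibitor, averaged 107 ± 2.6, 136 ± 10, 124 ± 22 and 113 ± 0.56 CPM (SD, n = 2) in the order HCT-8, HCT-8/FU, parental CM and resistant CM. Its spread in parental CM came from libraries at 139 and 109 CPM.

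The effectors SMG5 and SMG6 ran the other way. SMG5 had 166 and 178 CPM in HCT-8, 139 and 126 CPM in HCT-8/FU, 159 and 149 CPM in parental CM, and 146 and 141 CPM in resistant CM. SMG6, the endonuclease, had 65.4 and 60.9 CPM in HCT-8, 44 and 41.0 CPM in HCT-8/FU, 54.8 and 53.5 CPM in parental CM, and 49.6 and 47.8 CPM in resistant CM. Both were highest in HCT-8 and lowest in HCT-8/FU, although no neighbouring step of either passed the test. SMG6 shared 22.9% of its exonic bases with HIC1 on the opposite strand, a gene with 77 to 611 counts against 245 to 2060 for SMG6; whether the counting used strand is not stated. Over the 9 factors 5 of the 27 neighbouring steps passed, 3 of SMG1 and 2 of UPF2. Over all tested genes the share that passed ranged from 12.7% (HCT-8/FU and resistant CM) to 38.4% (HCT-8/FU and parental CM), with 36.7%, 24.7%, 19.7% and 19.4% in the remaining pairs of groups. These shares are of fixed pairs of groups. Neighbouring steps were instead picked by each factor's own order of means, so the count and the shares are not directly comparable.

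HCT-8/FU cells were compared with HCT-8 cells to find genes that differ with 5-FU resistance. A DE (differentially expressed) gene had an FDR no higher than 0.05 and differed by 0.58 or more on the log2 scale, in either direction, which is 1.5-fold. Of the 9 factors 3 were DE, all higher in HCT-8/FU, while 21.3% of all tested genes were DE and 13.2% were DE and higher. UPF2 rose by 0.87 ± 0.12 on the log2 scale (SE, FDR 4.26e-05), SMG1 by 0.77 ± 0.081 (FDR 2.72e-06) and UPF3B by 0.76 ± 0.19 (FDR 0.00471). These are 1.83-fold, 1.71-fold and 1.70-fold differences. The call of UPF3B was lost without HCT-8 replicate 2 (log2 0.74, FDR 0.0735) and without HCT-8/FU replicate 1 (log2 0.59, FDR 0.125), the deeper libraries of their groups.

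A further 3 factors passed by FDR alone, where 36.7% of all tested genes passed the FDR. UPF3A was higher by 0.34 ± 0.10 (FDR 0.0173), and SMG5 and SMG6 were lower with log2 fold changes of -0.37 ± 0.080 (FDR 0.00162) and -0.55 ± 0.092 (FDR 0.000207). Without HCT-8 replicate 2 or without HCT-8/FU replicate 1 SMG6 passed both thresholds, at -0.64 and -0.63. UPF1 (-0.18 ± 0.086, FDR 0.121), SMG8 (-0.09 ± 0.14, FDR 0.641) and SMG9 (0.04 ± 0.10, FDR 0.823) did not pass. The kinase and all 3 adaptors were thus higher and both effectors lower in resistant cells by the FDR, but UPF3A, UPF3B and SMG5 did not pass with a correction for GC content and length (0.22, 0.39 and -0.14). The median log2 fold change of the 9 factors was 0.04, against 0.01 over all tested genes. The libraries of both groups did not overlap for 7 of the 9 factors, as for 65.0% of all tested genes.

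Resistant CM was compared with parental CM to find genes that respond in HCT-8 cells to medium of resistant cells. The groups compared here share no library with those compared above, but both comparisons come from the same fit of all 8 libraries and share its estimate of spread. Of the 9 factors 2 were DE and both were higher, while 9.25% of all tested genes were DE and 7.97% were DE and higher. SMG1 rose by 1.26 ± 0.082 on the log2 scale (SE, FDR 3.88e-07), a 2.39-fold difference, and UPF2 by 0.97 ± 0.12 (FDR 4.05e-05), a 1.96-fold difference. UPF3B stood at 0.34 ± 0.19 (FDR 0.231), and passed without parental CM replicate 1 (log2 0.63, FDR 0.0103). The other 6 factors lay between -0.27 (SMG9, FDR 0.0572) and -0.08 (UPF1, FDR 0.567) and none passed. The median over the 9 factors was -0.10 against -0.06 over all tested genes, and the groups did not overlap for 5 of the 9 factors, as for 61.4% of all tested genes.

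SMG1 was also on the list of candidate kinases that the study drew from these same libraries, which is no independent evidence of its direction. Summed with its 7 pseudogenes it was higher by 0.5811 ± 0.075 in HCT-8/FU (FDR 1.96e-05) and by 1.051 ± 0.075 in resistant CM (FDR 5.88e-07). Its call thus held in resistant CM, while in HCT-8/FU the sum lay barely above the fold threshold of 0.58, by less than its SE.

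The change of SMG1 differed between the comparisons. It was smaller in HCT-8/FU against HCT-8 than in resistant CM against parental CM, with a difference of -0.49 ± 0.11 on the log2 scale (FDR 0.011). This was the single factor to pass, while 11.6% of all tested genes passed. UPF3A (0.46 ± 0.14, FDR 0.0502) and SMG6 (-0.40 ± 0.13, FDR 0.0525) lay just outside the threshold, and for UPF2 the difference was -0.10 ± 0.17 (FDR 0.789). Without resistant CM replicate 1 the SMG1 difference was -0.49 with an FDR of 0.0585.

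The same HCT-8 libraries served as reference for both conditioned media, so the next values share controls with each other and with the comparison of the lines. In parental CM against HCT-8, SMG1 was the 1 DE factor among the 9 and was lower (-0.89 ± 0.082, FDR 5.71e-06, a ratio of 0.539), while 8.15% of all tested genes were DE and 4.29% DE and lower. UPF2 (-0.44 ± 0.13, FDR 0.0238) and SMG9 (0.39 ± 0.097, FDR 0.0111) passed the FDR alone, and UPF2 became DE without parental CM replicate 1 (log2 -0.60, FDR 0.00101). In resistant CM against HCT-8, 0 of the 9 factors were DE in edgeR's test and 0 in DESeq2, where 10.4% of all tested genes were DE in edgeR. At an unadjusted p of 0.05, and also at an FDR of 0.05, 4 passed: UPF2 (0.53 ± 0.12, FDR 0.00408), SMG1 (0.37 ± 0.080, FDR 0.00327), SMG5 (-0.26 ± 0.078, FDR 0.0212) and SMG6 (-0.37 ± 0.087, FDR 0.00616), while 24.7% of all tested genes passed the FDR. Without resistant CM replicate 1, UPF2 was DE at 0.61 (FDR 0.0117). Relative to unconditioned cells, SMG1 was lower in parental CM and passed the FDR as higher in resistant CM, but the latter was lost with a correction for GC content and length (0.12, FDR 0.489).

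**Figure D2:**
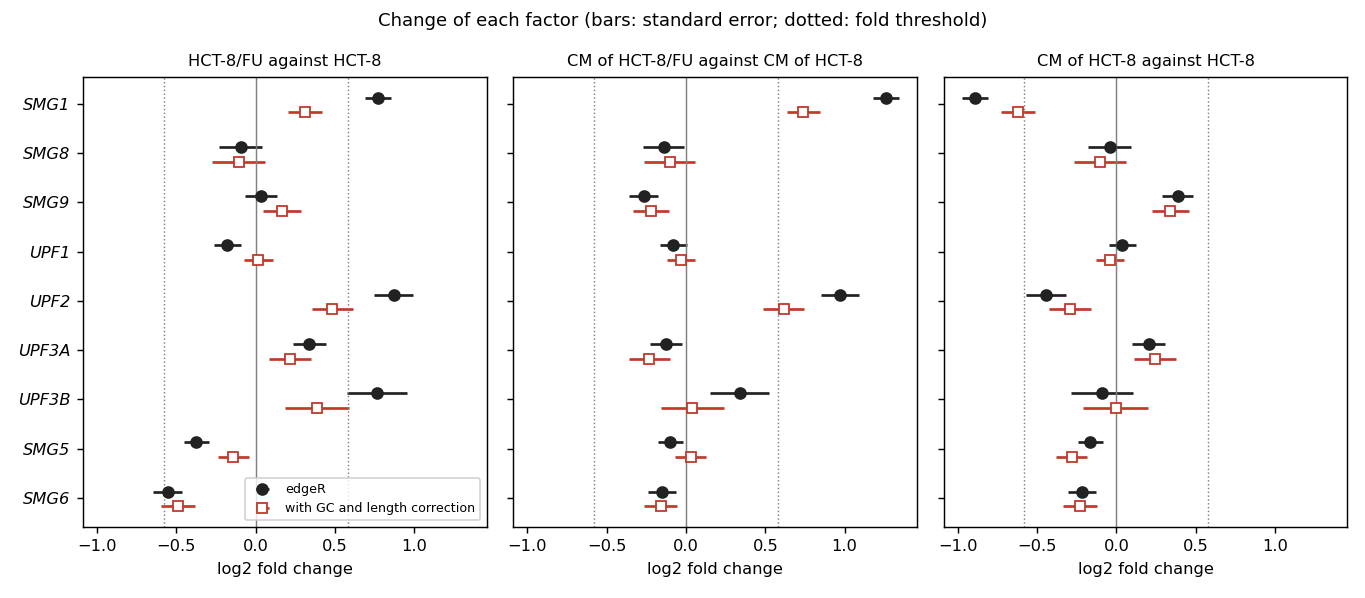
Log2 fold change of each NMD factor with its standard error (horizontal bars) in 3 comparisons, from the edgeR fit (filled circles) and with a correction for GC content and length (open squares). Dotted lines mark the fold threshold of 0.58. SMG1 and UPF2 lie beyond it in both comparisons of resistant with parental, and with the correction only in that of the media.

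The factors that rose are those with the fewest G and C bases. GC content over the exons was 41.2% for UPF2, 41.6% for UPF3B and 41.7% for SMG1, 44.7% for UPF3A and 46.6% for SMG8, and from 53.3% for SMG6 to 59.0% for UPF1 in the other 4. Over the 9 factors the Spearman coefficient between GC content and log2 fold change was -0.83 in HCT-8/FU against HCT-8 and -0.53 in resistant CM against parental CM. Over all tested genes it was -0.40 in both comparisons. These coefficients describe genes that share the same libraries.

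Among the 1589 tested genes with a GC content between 40% and 42%, where SMG1, UPF2 and UPF3B lie, the median log2 fold change was 0.39 in HCT-8/FU, with the 10th percentile at -0.40 and the 90th at 1.32. In resistant CM the median was 0.28 and the 90th percentile 1.12, which SMG1 exceeded and UPF2 did not.

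With each library corrected for GC content and exonic length by a spline, 0 of the 9 factors were DE in HCT-8/FU cells, where 14.9% of all genes with such values were DE. SMG1 stood at 0.31 ± 0.10 (FDR 0.0452), UPF2 at 0.48 ± 0.13 (FDR 0.0153) and UPF3B at 0.39 ± 0.20 (FDR 0.185). Of the effectors, SMG6 passed the FDR at -0.49 ± 0.11 (FDR 0.00484), whereas SMG5 did not (-0.14 ± 0.098, FDR 0.336). UPF3A did not pass either (0.22 ± 0.13, FDR 0.272). In the comparison of both media SMG1 (0.74 ± 0.11, FDR 0.00178) and UPF2 (0.62 ± 0.13, FDR 0.0115) stayed DE, where 4.31% of all genes with such values were DE. SMG1 also stayed DE in parental CM against HCT-8 (-0.62 ± 0.11, FDR 0.00323), where 4.87% were DE. UPF2 (-0.29, FDR 0.212) and SMG9 (0.34, FDR 0.0897) no longer passed in parental CM against HCT-8. In resistant CM against HCT-8, SMG6 passed (-0.39, FDR 0.0207) and SMG1 (0.12, FDR 0.489), UPF2 (0.33, FDR 0.0951) and SMG5 (-0.25, FDR 0.0888) did not. The difference of SMG1 between the comparisons did not pass (-0.43 ± 0.15, FDR 0.118). The part of base composition in these results was not tested beyond this correction, which also removes any change that follows GC content for another reason.

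**Figure D3:**
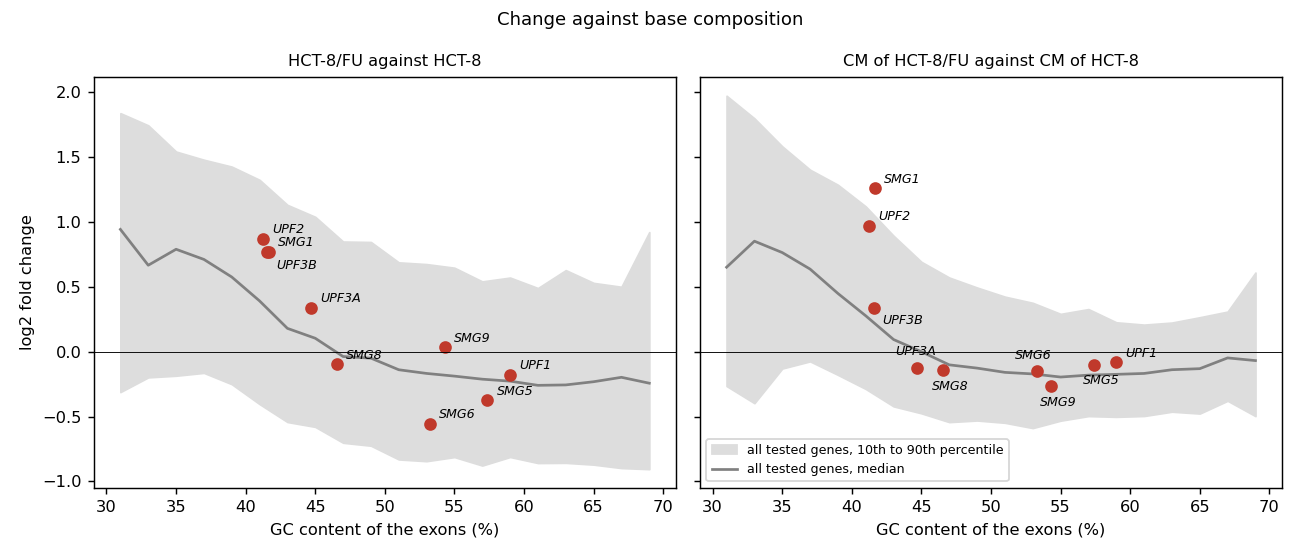
Log2 fold change of the 9 NMD factors (points) against the GC content of their exons in percent, for HCT-8/FU against HCT-8 and resistant CM against parental CM. The line is the median of all tested genes in bins of GC content and the band their 10th to 90th percentile; SMG1, UPF2 and UPF3B sit at 41.2% to 41.7% GC, where that median is above 0.

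The 7 pseudogenes were tested as genes of their own. In HCT-8/FU, 2 of them were DE and both were lower, where 21.3% of all tested genes were DE and 8.12% DE and lower: SMG1P5 at -0.85 ± 0.25 (FDR 0.0152) and SMG1P7 at -0.62 ± 0.17 (FDR 0.00927), while SMG1P1, SMG1P2 and SMG1P3 were at 0.08, 0.03 and -0.03. In resistant CM 0 of the 7 were DE and 0 passed an FDR of 0.05, though all 7 log2 fold changes were above 0, from 0.09 (SMG1P7) to 0.66 (SMG1P4). There 9.25% of all tested genes were DE and 19.7% passed the FDR. In parental CM against HCT-8, 1 of the 7 was DE, as were 8.15% of all tested genes: SMG1P5 was lower (-0.99 ± 0.25, FDR 0.0121) and SMG1P3 passed the FDR alone (-0.53 ± 0.15, FDR 0.0203). Levels were low: SMG1P3 averaged 11.5 to 16.9 CPM over the groups and SMG1P6 0.926 to 1.27 CPM. Of the counts on SMG1 and its copies together, the copies took 25.1% and 23.0% in the HCT-8 libraries, and in HCT-8/FU cells 13.9% and 12.7%. In the CM groups this share was 26.7% and 30.4% for parental CM, and 17.2% and 17.9% for resistant CM. The share was lowest in the group with the most SMG1 and highest in that with the least. SMG1 counts are part of the total, so this order follows in part from the level of SMG1 itself. Several copies overlap other genes, and reads that aligned equally well in more than 1 place were not counted for any gene, so the split between single copies is uncertain.

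**Figure D4:**
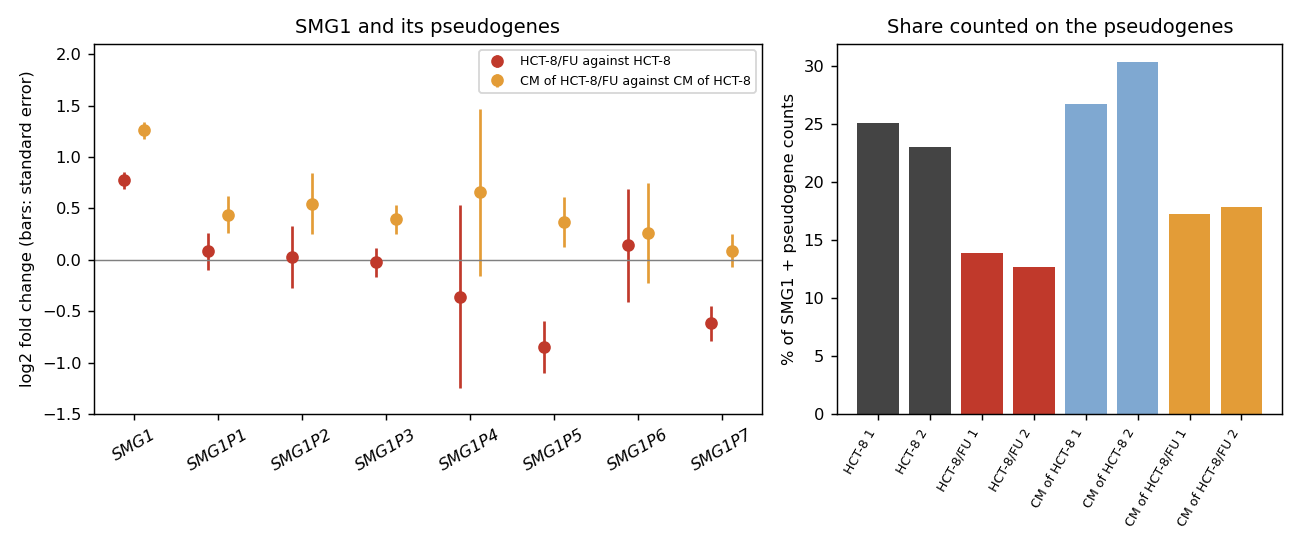
Left, log2 fold change with standard error of SMG1 and of each pseudogene in HCT-8/FU against HCT-8 and resistant CM against parental CM; right, percent of the counts of SMG1 and its pseudogenes that fell on the pseudogenes in each library (axis from 0). The share is 12.7% to 17.9% in the 4 libraries of resistant cells or their medium and 23.0% to 30.4% in the other 4.

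The transcripts of the factors were compared for features linked to NMD. The MANE transcript of SMG1 has a 3′ UTR of 4709 bases, longer than that of 92.2% of 19061 MANE transcripts, and that of SMG9 has 3613 bases, longer than 86.4%. The median over MANE transcripts was 1059 bases, and SMG8 has 228. SMG1, UPF2, SMG5 and SMG9 carry 1 ATG upstream of the start codon in the 5′ UTR, while UPF1, UPF3A, UPF3B, SMG6 and SMG8 carry none; 41.9% of MANE transcripts carry at least 1. Among the factors DE and higher in HCT-8/FU, SMG1 and UPF2 carry 1 upstream ATG and UPF3B none. The 3′ UTR of UPF2 has 1276 bases and that of UPF3B 856. SMG5 and SMG9 carry 1 upstream ATG and were not DE. The part of either feature in the changes was not tested.

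SMG1 and UPF2 moved together over the groups, so their promoters are shown, 250 bases before to 50 after the annotated start, from RefSeq on GRCh38.p14. Capitals mark GGGCGG (the GC box) and CCAAT (the CCAAT box) on either strand; in UPF2 and SMG1 some GC boxes overlap each other.
SMG1 (chr16:18926359-18926658, minus strand): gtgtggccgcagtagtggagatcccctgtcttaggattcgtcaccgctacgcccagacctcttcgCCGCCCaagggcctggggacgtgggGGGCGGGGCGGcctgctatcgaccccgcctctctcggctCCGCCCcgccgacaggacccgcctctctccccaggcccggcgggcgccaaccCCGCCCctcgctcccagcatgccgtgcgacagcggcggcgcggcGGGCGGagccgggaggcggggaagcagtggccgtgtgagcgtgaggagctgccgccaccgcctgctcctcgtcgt
UPF2 (chr10:12043121-12043420, minus strand): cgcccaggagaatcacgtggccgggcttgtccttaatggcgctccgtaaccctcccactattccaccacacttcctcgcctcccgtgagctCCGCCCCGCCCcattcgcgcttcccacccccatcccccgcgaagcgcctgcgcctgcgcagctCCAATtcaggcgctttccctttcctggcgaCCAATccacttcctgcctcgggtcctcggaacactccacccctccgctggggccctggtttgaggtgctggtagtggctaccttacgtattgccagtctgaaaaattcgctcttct
Of the 8 factors with a promoter in the table, all but SMG8, 6 held GGGCGG, against 45.0% of 35116 promoters, and 4 held CCAAT, against 34.6%. TATAAA was found in none of the 8, against 11.5% of promoters, and CCGGAAG, an ETS-type motif, in UPF3A alone, against 10.3%. The NRF1 motif was found in SMG9 alone, against 1.2%. The SMG6 window (chr17:2236798-2237097, 32.7% GC) lay inside the gene, far from its annotated end at 2303785 on the minus strand. The SMG5 window (chr1:156291467-156291766) lay beyond the end of its gene at 156282825. For these genes the motifs are thus not those at the gene starts located above. The SMG1 promoter was 74.7% GC and that of UPF2 62.7%, with a median of 58.7% over all promoters, in contrast to the low GC content of their exons.

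The genes most like SMG1 over the 8 libraries were found by Pearson's r of log2 CPM among 11690 genes with at least 5 CPM on average. They were DMXL1 (r = 0.9998), FAM91A1 (0.998), PIKFYVE (0.998), RBPJ (0.998) and BIRC6 (0.997). DMXL1 was higher by 0.93 in HCT-8/FU and by 1.49 in resistant CM on the log2 scale, and lower by a log2 fold change of -1.03 in parental CM. Among the factors UPF2 came closest with r = 0.96, at rank 445, followed by UPF3B with 0.77. UPF3A (0.23) and SMG8 (-0.23) followed SMG1 little, and SMG5 (-0.52), SMG6 (-0.58), UPF1 (-0.71) and SMG9 (-0.78) ran against it. The points share 4 groups and the trend with GC content, so these values describe the libraries only.

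Genes around the factors were taken as lists. Of 5 other NMD and translation termination factors (DHX34, NBAS, PNRC2, ETF1 and GSPT1), 0 were DE and higher and 1 was DE and lower in HCT-8/FU, and the median log2 fold change was -0.19, and 0 were DE in the comparison of the media. The DE gene was NBAS (-0.66 ± 0.093, FDR 4.97e-05), which acts with UPF1 in NMD and in membrane traffic. Of 6 genes of the exon junction complex 1 was DE and higher in HCT-8/FU, MAGOHB (0.69 ± 0.18, FDR 0.00791), a core subunit. In the comparison of the media 0 of the 6 were DE. Beside both lists, 13.2% of all tested genes were DE and higher and 8.12% DE and lower in HCT-8/FU. In the comparison of the media 9.25% were DE. With the GC and length correction MAGOHB was at 0.01 in HCT-8/FU. Its paralogue MAGOH, DE in neither comparison without the correction, was then DE and lower in both (-1.01, FDR 0.0189, and -1.15, FDR 0.02). So corrected, 14.9% and 4.31% of all genes with such values were DE. MAGOH was at 27.5 and 14.35 CPM in the parental CM libraries, which lie far apart, and at 11.8 and 13.5 CPM in resistant CM.

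Of 7 genes of decapping and 5′-3′ decay, 2 were DE and higher in both comparisons, against 13.2% and 7.97% of all tested genes. XRN1, the exonuclease that degrades decapped mRNA, rose by 1.21 ± 0.093 in HCT-8/FU (FDR 1.73e-07) and by 1.62 ± 0.098 in resistant CM (FDR 3.88e-07). DCP2, the decapping enzyme, rose by 1.13 ± 0.10 (FDR 5.54e-07) and 0.96 ± 0.10 (FDR 7.18e-06). XRN1 had 32.8 and 30.8 CPM in HCT-8, 73.9 and 72.0 CPM in HCT-8/FU, 14.96 and 15.6 CPM in parental CM, and 47.6 and 47.0 CPM in resistant CM, the order of groups seen for SMG1. The median of the list was -0.06 in HCT-8/FU and 0.20 in resistant CM. With the GC and length correction 0 of the 7 were DE in HCT-8/FU, and 1, XRN1 (0.90, FDR 0.00143), in resistant CM. The shares over all genes with such values were 14.9% and 4.31%.

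SMG1 belongs to the PI3K-related kinases. Of the 5 others 3 were DE and higher in both comparisons: ATR, which senses stalled replication forks, by 1.48 and 1.47, ATM, which responds to DNA double-strand breaks, by 1.29 and 1.20, and PRKDC, the kinase of end joining, by 1.12 and 0.62 in HCT-8/FU and resistant CM. Over all tested genes 13.2% were DE and higher in HCT-8/FU and 7.97% in resistant CM. The growth regulator MTOR was at -0.25 (FDR 0.0237) and 0.06 (FDR 0.673), and TRRAP, which has no kinase activity, at -0.22 (FDR 0.0521) and 0.13 (FDR 0.307). With the GC and length correction ATR, ATM and PRKDC were at 0.68, 0.63 and 0.76 and 3 were DE in HCT-8/FU, but 0 were DE in resistant CM, where ATR was at 0.57, ATM at 0.43 and PRKDC at 0.19. So corrected, 14.9% of all genes with such values were DE in HCT-8/FU and 4.31% in resistant CM. Of the 5 factors that assemble these kinases (TELO2, TTI1, TTI2, RUVBL1 and RUVBL2) RUVBL1 was DE and lower in HCT-8/FU (-0.59 ± 0.081, FDR 3.52e-05), with the correction 0 were DE, and 0 were DE in resistant CM. Without correction 8.12% of all tested genes were DE and lower in HCT-8/FU, and 9.25% were DE in resistant CM.

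Most of the listed transcripts known as NMD targets were lower in resistant cells. Of 12, 8 were DE and lower and 0 higher in HCT-8/FU, the median log2 fold change being -0.64, against 0.01 over all tested genes, of which 8.12% were DE and lower. MAP3K14 (-0.32, FDR 0.104) and SLC7A11 (0.23, FDR 0.136) did not pass. With the GC and length correction SLC7A11 was lower and passed the FDR alone (-0.54, FDR 0.00644), while MAP3K14 was at -0.07 (FDR 0.777). The transcription factors of the integrated stress response ATF3 (-3.16 ± 0.14, FDR 1.52e-09) and DDIT3 (-2.29 ± 0.10, FDR 1.56e-09) fell most, followed by UPP1 (-1.22), which cleaves uridine, and the growth arrest gene GADD45A (-1.16). ATF3 was at 67.8 and 65.2 CPM in HCT-8 and at 7.78 and 6.52 CPM in HCT-8/FU. Most of these transcripts are also set by stress signalling at the level of transcription, and counts per gene do not separate synthesis from decay.

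In resistant CM against parental CM, 0 of the 12 targets were DE and lower and 1, SLC7A11, was DE and higher (1.14 ± 0.12, FDR 8.22e-06), with a median of -0.26. Of all tested genes 1.28% were DE and lower and 7.97% DE and higher. By the FDR alone 7 of the 12 were lower, as were 8.49% of all tested genes, with log2 fold changes from -0.48 (ATF4) to -0.23 (SNHG1). SLC7A11 encodes the cystine importer and was at 123 and 86.3 CPM in parental CM and 233 and 221 CPM in resistant CM. The change of 6 of the 12 targets differed between the comparisons, while that of 11.6% of all tested genes did. ATF3 differed by -2.76 ± 0.19 (FDR 5.98e-07) and DDIT3 by -2.07 ± 0.14 (FDR 5.15e-07). In parental CM against HCT-8, 5 of the 12 were DE and lower, among them ATF3 (-1.96) and DDIT3 (-1.05), where 4.29% of all tested genes were DE and lower. With the GC and length correction 8 were DE in HCT-8/FU, with GAS5 and ZFAS1 in place of GADD45B and TBL2, and 0 in the comparison of the media, where SLC7A11 was at 0.34 (FDR 0.124). Over all genes with such values 14.9% were DE in HCT-8/FU and 4.31% in the comparison of the media. In resistant CM against HCT-8, 7 of the 12 were DE and lower (median -0.61), where 10.4% of all tested genes were DE. Against the same HCT-8 libraries, 8, 7 and 5 targets were thus DE and lower in HCT-8/FU, resistant CM and parental CM. None was DE and lower between the media, where the changes of 7 passed the FDR but stayed within the fold threshold. SMG1 was higher in HCT-8/FU against HCT-8 and in resistant CM against parental CM, but lower in parental CM against HCT-8 (-0.89). A link between SMG1 and the targets was not tested.

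**Figure D5:**
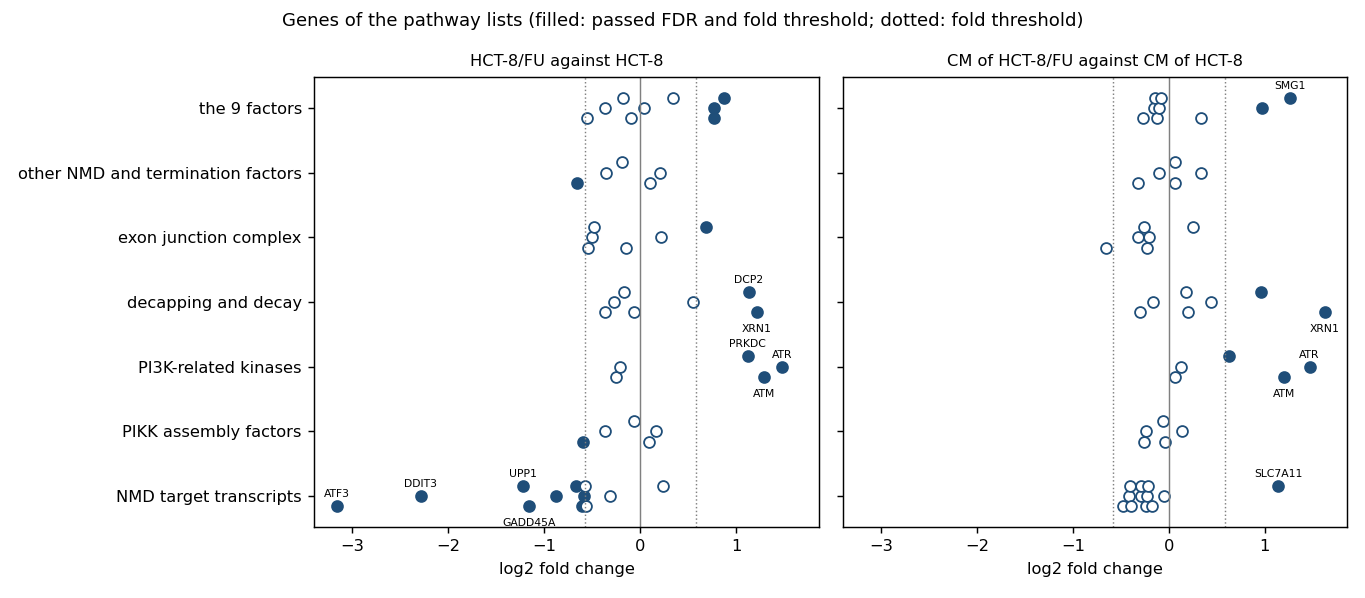
Log2 fold change of the genes of each list in HCT-8/FU against HCT-8 and resistant CM against parental CM, with filled points for DE genes and dotted lines at the fold threshold of 0.58. Labelled genes are DE and changed by more than 1 on the log2 scale; 8 targets lie to the left in the comparison of the lines and none in that of the media.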

How the data were processed

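Total RNA was sequenced after mRNA capture, in 8 libraries of 4 groups. The authors aligned reads to GRCh38 with HISAT2, used SAMtools 1.18, counted reads per gene with HTSeq 0.11.2 and deposited raw counts per library; no source used here gives the strand setting. Lines that name no gene were left out; of all records, 33.7% to 49.6% fell on no feature, 1.15% to 1.57% were ambiguous, 2.24% to 3.48% not unique, 3.58% to 29.6% unaligned and 2.20% to 5.77% of low quality. The authors' DESeq2 tables of fold changes and p-values were not used. Groups and replicate numbers came from sample titles.

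Counts were fitted with edgeR 4.0.16 in R 4.3.3 (quasi-likelihood, Benjamini-Hochberg over all tested genes) on all 8 libraries and 4 group means, with TMM scaling to HCT-8 replicate 2 and filterByExpr. SE is the absolute log2 fold change over the square root of F. The fit was tested on simulated data. CPM per kb uses MANE transcript lengths of GENCODE 44, in which 56105 of 64253 identifiers were found. SMG1 copies were aligned with minimap2 to the hg38 sequence.

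The members and lists were chosen with earlier results of these data known. Named were all 9 factors, all SMG1 pseudogenes, at most 4 DE genes per list by absolute change, and the 5 genes most like SMG1; MTOR, TRRAP, MAGOH, MAP3K14, GAS5 and ZFAS1 were added after their values were seen. A gene of the list of other NMD factors is not reported here. Alternatives were DESeq2 1.42.0 or its size factors, another TMM reference, other filters, the compared groups alone, no fold threshold, a replicate block, a correction for GC content and length (5 degrees of freedom), a term for libraries with over 15% not aligned, and leaving out each library. Same-numbered libraries correlated in their deviations at 0.28 for HCT-8 with CM of HCT-8, whose replicates 1 both had many unaligned records, and at -0.18 to 0.03 for the other pairs of groups, so the numbers were not taken as pairs. Intervals for single libraries are not given, and depth sets the counting error.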

Additional observations from a re-analysis of the deposited data

Results flagged for a closer look

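The log2 fold change of SMG1 in HCT-8/FU against HCT-8 (0.77) was smaller than that in resistant CM against parental CM (1.26). The contrast of these changes, tested in edgeR's quasi-likelihood fit over all genes, gave -0.4876 with an SE of 0.11 and an FDR of 0.011. It kept its direction in every alternative run, and missed the threshold with the GC and length correction (-0.43, FDR 0.118) and without replicate 1 of resistant CM (-0.49, FDR 0.0585). SMG1 was lower in parental CM than in HCT-8 (log2 -0.89), and these reference groups differ between the contrasted changes.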

How the results depend on the processing

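No member reversed its direction after a call in any of the alternatives. Over the single members 848 of 887 values kept their side of the thresholds, 28 moved past them and 11 fell short. DE factors in HCT-8/FU against HCT-8 numbered 3, but 0 with the GC and length correction, with or without the replicate block, and 6 without a fold threshold; the correction removes any trend with GC content. In parental CM against HCT-8 the 1 DE factor became 3 without a fold threshold, and in resistant CM against HCT-8 the 0 became 1 with parental CM replicate 2 as TMM reference and 4 without a fold threshold. Leaving out 1 library gave 1 to 2 (2 without parental CM replicate 1) and 0 to 1 (1 without resistant CM replicate 1) in these comparisons. Factors whose change differed between the comparisons numbered 1, but 2 with DESeq2 size factors, with the other TMM reference and with a mean normalized count of 10 as filter, 3 without a filter and with a term for libraries with over 15% not aligned, 0 with the GC and length correction (also with the block), and 0 to 3 on leaving out a library (0 without resistant CM replicate 1, 2 without HCT-8 replicate 2, 3 without either parental CM library). Neighbouring steps that passed numbered 5, but 1 with the correction (also with the block) and 2 to 8 on leaving out a library (2 without HCT-8 replicate 2, 3 without resistant CM replicate 2, 8 without parental CM replicate 1). Unless stated, the cause was not tested. The replicate block alone gave the same 3, 2, 1 and 0 DE factors and changed no other call. With HCT-8 and HCT-8/FU numbers crossed, a pairing chosen after seeing the data, the counts were 3, 2, 1 and 0, with 2 differing changes. Groups of 2 limit all tests, and UPF3B rests on 103 to 744 counts.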
